A study of Mus musculus with 24 samples.

Results

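Mitochondria take up Ca2+ through the uniporter, a channel complex of the inner membrane, and release it through exchangers in the same membrane. Mcu encodes the pore, Mcub a paralogue that joins the pore and lowers its conductance, and Smdt1 (the protein EMRE) the subunit that couples the pore to its gatekeepers. Micu2 and Micu3 encode EF-hand proteins that set how much Ca2+ opens the channel, and Mcur1 encodes an inner membrane protein that helps the complex to assemble. On the exchange side, Slc8b1 (NCLX) encodes the Na+/Ca2+ exchanger that is the main way out of the matrix, Letm1 an inner membrane protein of K+/H+ or Ca2+/H+ exchange, and Vdac1 the channel of the outer membrane through which ions and metabolites pass. In skeletal muscle, Ca2+ released for contraction also enters the mitochondria, where it activates dehydrogenases of the matrix. These 9 genes were chosen by name, and all 9 are among the 55487 genes listed and among the 14541 genes that were tested.

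The values are from bulk RNA of C2C12 myotubes, a wild-type mouse skeletal muscle cell line, in 24 libraries that form 4 groups of 6. All myotubes had differentiated under 5 % O2, were labelled as day 5, and were exposed to either 5 % or 1 % O2 for 2 h. The groups were 5 % CTRL and 1 % CTRL, which were not stimulated, and 5 % STIM and 1 % STIM. The latter were electrically stimulated in repeated short bouts after the 2 h of exposure and harvested directly afterwards. The authors replaced the medium before and after stimulation. Whether the CTRL groups had the same medium changes and the same total time was not stated. Effects of stimulation can thus not be told apart from those of time or medium. All 4 groups are 1 cell line, with no other cell type or whole muscle among them, and whether the libraries of a group came from separate cultures was not stated in the labels, so that p-values measure the spread between these libraries. Libraries held 26541858 to 28173745 reads, and the values are gene counts divided by the size factor of the library, called normalized counts here. Replicate 1 of 1 % CTRL stood apart in the slope of counts on gene length (1.00, against 0.872 to 0.963 in the other 23 libraries).

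The treatments were visible in known targets. Slc2a1, Pdk1 and Adm, all induced by low O2, rose in 1 % CTRL against 5 % CTRL and in 1 % STIM against 5 % STIM, Slc2a1 with log2 fold changes of 2.20 and 1.67. All 3 fell in 1 % STIM against 1 % CTRL, where 10.8 % of all tested genes fell. Their log2 fold changes there were -0.63, -0.40 and -0.74. Of 3 activity-induced genes, Nr4a1 rose with stimulation, with log2 fold changes of 1.27 under 5 % O2 and 1.2 under 1 % O2, whereas Fos and Egr1 did not pass the test. Nr4a1 was not particular to stimulation, as it also rose with low O2, by 1.29 in unstimulated and 1.21 in stimulated myotubes. Egr1 had log2 fold changes of -1.39 and -1.13 with low O2. All 8 myotube markers were detected in every library, and their summed normalized counts were 434626 to 478468 in 5 % CTRL, 381717 to 415878 in 1 % CTRL, 388260 to 451021 in 5 % STIM and 371398 to 416408 in 1 % STIM. Of these markers 6 of 8 fell and 0 rose in 1 % CTRL against 5 % CTRL, among them Myog by 0.66 on the log2 scale, where 30.5 % of all tested genes fell and 29.4 % rose, and 5 of 8 fell in 1 % STIM against 5 % STIM, where 28.4 % of all genes fell. The 6 markers of myoblasts and cycling cells summed to 3339 to 3753 in 5 % CTRL, 3758 to 5763 in 1 % CTRL, 3663 to 4316 in 5 % STIM and 4028 to 4962 in 1 % STIM, with none at 0. In 1 % CTRL against 5 % CTRL 3 of them rose and 2 fell, beside the shares of all genes just given. With stimulation, 3 of the 8 myotube markers fell under 5 % O2 and 2 under 1 % O2, and 0 rose. Myog was among those that fell, with log2 fold changes of -0.53 and -0.64. Of the myoblast and cycling markers, 2 rose and 1 fell under 5 % O2, and 1 rose and 1 fell under 1 % O2. Of all tested genes, 9.44 % rose and 12 % fell with stimulation under 5 % O2. Under 1 % O2, 11.5 % rose and 10.8 % fell. The part of these markers in the results below was not tested, and in bulk RNA fewer cells of a kind and less RNA per cell cannot be told apart.

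The start sites of Vdac1, Letm1, Mcur1 and Mcu are shown first, because genes with opposite responses to low O2 stood on either side of a pore gene that did not pass the test. For Micu3, which differed most in unstimulated myotubes, no start site was available. The windows are from RefSeq (GRCm38.p6), 5′ to 3′ on the strand of the gene, and cover up to 250 bases before the start, without bases that lie in an annotated exon. Capitals mark the cores ACGTG and GCGTG, which the hypoxia-inducible factors can bind, on either strand (CACGT and CACGC on the other), and neighbouring matches can share a base.
Vdac1 (chr11:52360601-52360850, + strand): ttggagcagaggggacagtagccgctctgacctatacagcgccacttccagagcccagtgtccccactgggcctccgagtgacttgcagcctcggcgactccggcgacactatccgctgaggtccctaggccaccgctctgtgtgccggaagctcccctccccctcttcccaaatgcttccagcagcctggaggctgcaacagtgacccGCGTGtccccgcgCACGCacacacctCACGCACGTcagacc
Letm1 (chr5:33782818-33782967, - strand): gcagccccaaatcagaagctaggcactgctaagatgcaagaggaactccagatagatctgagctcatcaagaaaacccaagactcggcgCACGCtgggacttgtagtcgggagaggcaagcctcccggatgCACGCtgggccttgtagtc
Mcur1 (chr13:43560192-43560441, - strand): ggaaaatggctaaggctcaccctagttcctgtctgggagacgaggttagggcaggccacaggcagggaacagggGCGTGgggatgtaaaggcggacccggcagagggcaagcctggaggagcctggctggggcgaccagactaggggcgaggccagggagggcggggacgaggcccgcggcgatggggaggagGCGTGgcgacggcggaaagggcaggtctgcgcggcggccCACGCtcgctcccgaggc
Mcu (chr10:59616693-59616942, - strand): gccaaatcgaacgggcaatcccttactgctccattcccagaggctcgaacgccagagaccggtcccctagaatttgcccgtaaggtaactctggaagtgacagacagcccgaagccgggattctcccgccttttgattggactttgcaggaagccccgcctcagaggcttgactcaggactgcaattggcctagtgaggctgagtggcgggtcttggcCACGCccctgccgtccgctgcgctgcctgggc

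The table of start sites held 7 of the 9 genes, without Micu3 and Slc8b1. Within 250 bases before the start, ACGTG was found once in Vdac1 and in none of the other 6 genes, against 16.6 % of 32851 start sites in the table. GCGTG was found 3 times in Vdac1, 3 times in Mcur1, 2 times each in Letm1 and Micu2, once each in Mcu and Smdt1 and not in Mcub, against 28.2 % of start sites with at least 1 match. Genes that rose and genes that fell under 1 % O2 thus both had matches, and so did Mcu. A match in such a short stretch is a description of the sequence only.

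All 9 genes are protein-coding. In GRCm38 Mcu lies at chr10:59446984-59616692, Mcub at chr3:129914960-129970206, Micu2 at chr14:57916261-57999262, Micu3 at chr8:40307458-40386308, Smdt1 at chr15:82338959-82349091, Mcur1 at chr13:43538393-43560191, Letm1 at chr5:33739673-33782817, Slc8b1 at chr5:120511168-120534024 and Vdac1 at chr11:52360860-52389397. Exon sequence was shared with other genes in stretches of 75 bases to 6.59 % for Smdt1 (with Pheta2, on the same strand), to 2.11 % for Micu3 (with Fgf20, on the other strand) and to 0.53 % or less for the other 7 genes. These are shares of sequence and not of reads, and how far they affect the counts of Smdt1 and Micu3 was not tested.

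Levels of the members were compared per length, as normalized counts per kb of the union of a gene's exons. In 5 % CTRL, Vdac1 was the highest with 2953 ± 119 per kb (SD, n = 6), followed by Micu2 with 694 ± 18.3 per kb. Smdt1 with 416 ± 69.2, Mcu with 331 ± 17.4 and Slc8b1 with 306 ± 14.9 per kb came next, and the libraries of Smdt1 and Mcu, and those of Mcu and Slc8b1, overlapped. Letm1 with 151 ± 7.17, Mcub with 135 ± 9.84, Mcur1 with 101 ± 3.39 and Micu3 with 68.6 ± 6.88 per kb were the lowest. The pore transcript was thus between that of its gatekeeper Micu2 above and those of Mcub, Mcur1 and Micu3 below. The order was the same in the other groups, except that Mcub and Letm1 changed places in 5 % STIM, where their libraries overlapped.

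The length used matters for these levels. Mcu has 6.94 kb of exons in all but a longest transcript of 2.87 kb, and per kb of the longest transcript its level in 5 % CTRL was 799 ± 41.9. With that length Micu2 (919 ± 24.2), Smdt1 (835 ± 139) and Mcu were close together, with overlapping libraries of neighbours, and Mcub (135 ± 9.84) became the lowest. Vdac1 stayed the highest with 3826 ± 155.

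**Figure D1:**
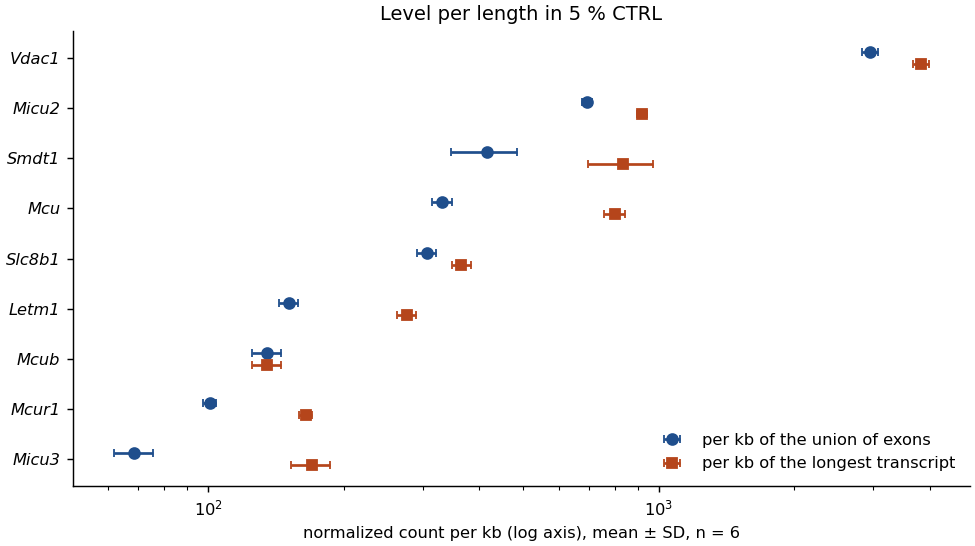
Levels of the 9 genes in 5 % CTRL as normalized counts per kb, on a log axis, per kb of the union of exons (circles) and of the longest transcript (squares), as mean ± SD of 6 libraries. Vdac1 is the highest with both lengths, and Mcu moves from 331 to 799 per kb.

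**Figure D2:**
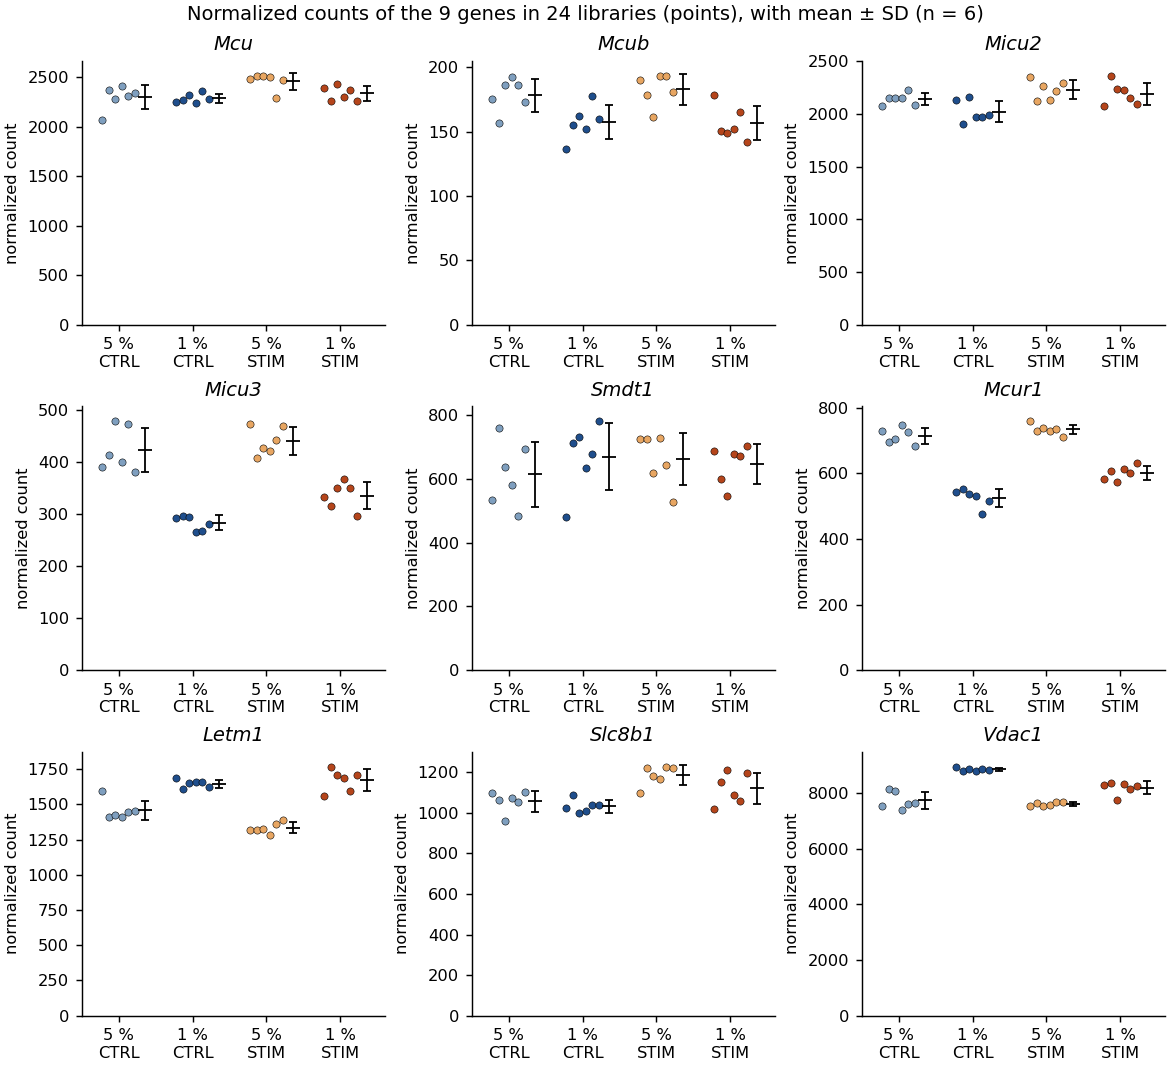
Normalized counts of the 9 genes in each of the 24 libraries (points, by group) with mean ± SD of the 6 libraries beside them, with axes that start at 0. Micu3 and Mcur1 are lower in both 1 % groups than in both 5 % groups. Letm1 and Vdac1 are higher in their group means, with 1 % STIM libraries of both genes below the highest of 5 % CTRL. Mcu stays between 2070.0 and 2509.8 in all libraries.

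In unstimulated myotubes, low O2 (1 % CTRL against 5 % CTRL) went with differences of single members in both directions, while the pore did not pass the test. Micu3 and Mcur1 fell the most, Vdac1 and Letm1 rose, smaller decreases of Mcub and Micu2 passed the test narrowly, and Mcu, Smdt1 and Slc8b1 did not pass. Of the 9 genes, 2 rose and 4 fell, where 29.4 % of all tested genes rose and 30.5 % fell. The median log2 fold change was -0.034 over the 9 genes and 0.0015 over all genes tested. Differences are log2 fold changes of normalized counts with 1 added, and a gene was called where limma, fitted across all genes, gave an adjusted p (Benjamini-Hochberg) under 0.05.

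The normalized count of Mcu was 2070.0 to 2414 in 5 % CTRL (median 2321) and 2233 to 2360.0 in 1 % CTRL (median 2269.6). The groups overlapped, and the log2 fold change was -0.0057 ± 0.033 (SE, adjusted p = 0.895), with a 95 % confidence interval from -0.073 to 0.062. The pore transcript thus lay within the spread between libraries at both O2 levels.

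Micu3, which enhances uptake by the uniporter and is known from brain and muscle, had normalized counts of 381 to 478 in 5 % CTRL (median 406) and of 265 to 296 in 1 % CTRL (median 287). Every library under 1 % O2 was below every library under 5 % O2. The decrease was 0.57 on the log2 scale (log2 fold change -0.57 ± 0.062 SE, adjusted p = 1.08e-09), and the level fell by 32.7 %.

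For Mcur1, the assembly factor, normalized counts were 683 to 747 in 5 % CTRL (median 716) and 475 to 554 in 1 % CTRL (median 534). The groups did not overlap. The log2 fold change was -0.44 ± 0.040 (SE, adjusted p = 1.65e-11), and the level fell by 26.4 %.

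For Vdac1, normalized counts were 7377 to 8162 in 5 % CTRL (median 7639) and 8796 to 8945 in 1 % CTRL (median 8849), again without overlap. The libraries under 1 % O2 lay close together. The log2 fold change was 0.20 ± 0.026 (SE, adjusted p = 5.66e-08), an increase of 14.5 %.

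Letm1 had normalized counts of 1409.7 to 1593 in 5 % CTRL (median 1437) and of 1606 to 1688 in 1 % CTRL (median 1655). The groups did not overlap, although replicate 1 of 5 % CTRL, the highest of its group, came close to the 1 % libraries. The log2 fold change was 0.18 ± 0.034 (SE, adjusted p = 3.09e-05), an increase of 13.1 %.

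The 2 remaining calls were small. Mcub had 157 to 192 (median 181) in 5 % CTRL and 137 to 178 (median 158) in 1 % CTRL, with overlapping groups and a log2 fold change of -0.18 ± 0.074 (SE, adjusted p = 0.0358). This call was lost with adjusted p between 0.0541 and 0.107 when replicate 3, 4 or 5 of 5 % CTRL or replicate 1, 2 or 4 of 1 % CTRL was left out, with DESeq2 (adjusted p = 0.0526), and after scaling every library to an equal sum, called rescaled libraries here (log2 fold change -0.10, adjusted p = 0.247). It was also lost without the filter on low counts (adjusted p = 0.0701), with the compared groups fitted alone (adjusted p = 0.0522) and with array weights (adjusted p = 0.0682), so that 5 of 11 alternatives kept it. Micu2 had 2073 to 2228 (median 2154) in 5 % CTRL and 1904 to 2161 (median 1982) in 1 % CTRL, also with overlap, and a log2 fold change of -0.084 ± 0.035 (SE, adjusted p = 0.0417). Its call was lost when any of replicates 2 to 5 of 5 % CTRL or replicates 2, 4, 5 and 6 of 1 % CTRL was left out (adjusted p 0.0638 to 0.12), without the filter (adjusted p = 0.0824), and with rescaled libraries, where the log2 fold change was -0.0029.

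Smdt1 and Slc8b1 did not pass. Smdt1 had 485 to 759 (median 609) in 5 % CTRL and 481 to 780 (median 696) in 1 % CTRL, the widest relative spread of the 9 genes, and its log2 fold change was 0.12 with a 95 % confidence interval from -0.12 to 0.37 (adjusted p = 0.388). Slc8b1 had 961 to 1101 (median 1069) in 5 % CTRL and 997 to 1089 (median 1032) in 1 % CTRL, with a log2 fold change of -0.034 and an interval from -0.12 to 0.052 (adjusted p = 0.50). The interval of the exchanger was narrow and that of Smdt1 wide.

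The size factors were 0.955 to 0.992 in the 5 % groups and 1.02 to 1.05 in the 1 % groups. With rescaled libraries instead, the median of all genes moved by 0.0805 (log2) in this comparison, and 62.7 % of the calls were increases, against 49 % with the size factors of the authors. Mcu then had a log2 fold change of 0.075 (adjusted p = 0.0546), while the calls of Micu3, Mcur1, Letm1 and Vdac1 held under that scaling and the other 10 alternatives.

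Low O2 in stimulated myotubes (1 % STIM against 5 % STIM) gave calls for Micu3, Mcur1, Letm1 and Vdac1 with the same signs as in unstimulated ones, and these libraries are others than those of the comparison above. Of the 9 genes, 2 rose and 3 fell, where 29 % of all tested genes rose and 28.4 % fell. The medians of the log2 fold changes were -0.074 over the 9 genes and -8.27e-04 over all genes.

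Micu3 had 407 to 473 (median 434) in 5 % STIM and 296 to 368 (median 341) in 1 % STIM, without overlap, and a log2 fold change of -0.39 ± 0.062 (SE, adjusted p = 1.97e-06). Mcur1 had 712 to 759 (median 733) in 5 % STIM and 575 to 633 (median 605) in 1 % STIM, also without overlap, and a log2 fold change of -0.29 ± 0.040 (SE, adjusted p = 2.35e-07). Micu3 thus fell by 23.8 % and Mcur1 fell by 18.0 %, with every 1 % library below every 5 % library.

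Letm1 had 1284 to 1391 (median 1325) in 5 % STIM and 1563 to 1767 (median 1698) in 1 % STIM. The groups were well apart, and the log2 fold change of 0.32 ± 0.034 (SE, adjusted p = 5.36e-10) was an increase of 25.2 %. Vdac1 had 7519 to 7693 (median 7605) in 5 % STIM and 7757 to 8364 (median 8278) in 1 % STIM, without overlap, and a log2 fold change of 0.11 ± 0.026 (SE, adjusted p = 5.56e-04).

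Mcub had 162 to 193 (median 185) in 5 % STIM and 142 to 178 (median 152) in 1 % STIM, with overlap, and a log2 fold change of -0.22 ± 0.074 (SE, adjusted p = 0.00981). The call was lost with rescaled libraries (log2 fold change -0.15, adjusted p = 0.0734) and held with each library left out in turn. Mcu had 2284 to 2509.8 (median 2486) in 5 % STIM and 2254 to 2433 (median 2334) in 1 % STIM, and its log2 fold change of -0.074 ± 0.033 (SE, adjusted p = 0.0553) just missed the threshold. It passed with DESeq2 (adjusted p = 0.0474) and without replicate 1 of 5 % CTRL, replicate 5 of 5 % STIM or replicate 1 or 3 of 1 % STIM (adjusted p 0.0151 to 0.0494), and was -0.0040 with rescaled libraries.

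Slc8b1 (1099 to 1228 against 1020.0 to 1212), Micu2 (2122 to 2346 against 2079 to 2360.0) and Smdt1 (527 to 728 against 545 to 702) had overlapping groups in 5 % STIM and 1 % STIM and did not pass the test. Their log2 fold changes were -0.082, -0.026 and -0.027, with 95 % confidence intervals from -0.17 to 0.0034, from -0.098 to 0.047 and from -0.27 to 0.22. Slc8b1 passed without replicate 1 of 5 % STIM or replicate 3 or 6 of 1 % STIM (adjusted p 0.0355 to 0.0449), and with array weights (adjusted p = 0.0295). With rescaled libraries the median of all genes moved by 0.0702 (log2), 63.2 % of the calls were increases against 50.4 %, and Micu2 and Smdt1 changed sign to 0.045 and 0.043 without passing.

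**Figure D3:**
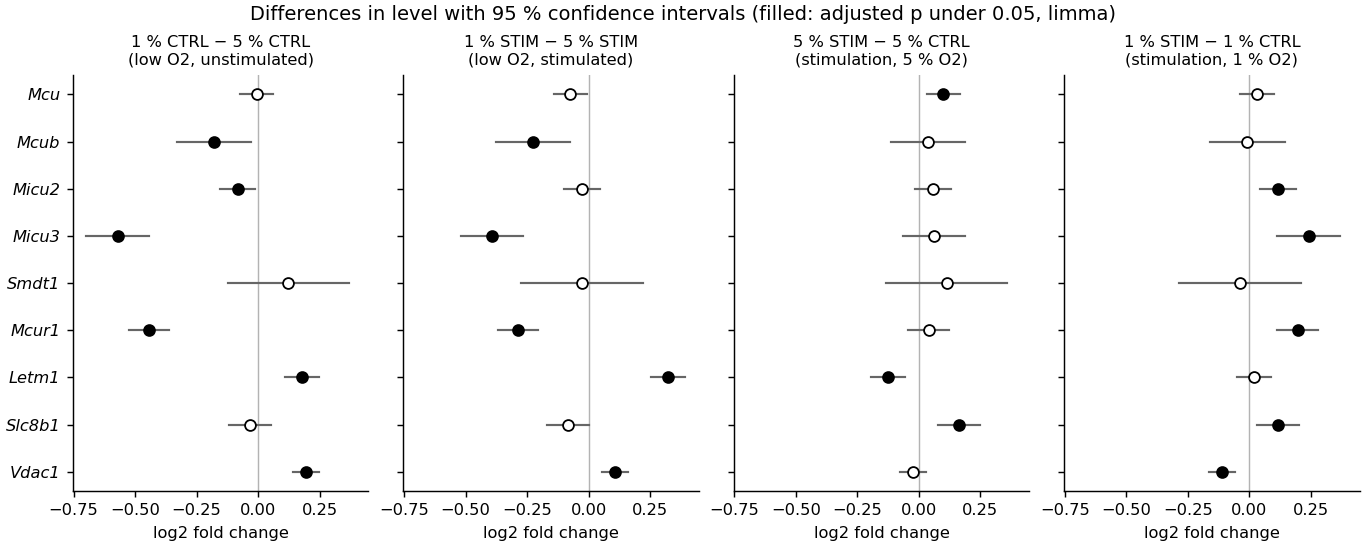
Log2 fold changes of the 9 genes in the 4 comparisons (points) with 95 % confidence intervals (lines) from limma, filled where the adjusted p is under 0.05. Micu3 and Mcur1 lie left of 0 and Letm1 and Vdac1 right of 0 in both comparisons of 1 % with 5 % O2, and Mcu lies at -0.0057 in unstimulated myotubes.

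With stimulation under 5 % O2 (5 % STIM against 5 % CTRL), Slc8b1 and Mcu were higher and Letm1 was lower, all by small amounts. The other members had no call. Of the 9 genes, 2 rose and 1 fell, where 9.44 % of all tested genes rose and 12 % fell. The medians of the log2 fold changes were 0.058 over the 9 genes and -0.0076 over all genes.

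Slc8b1, the exchanger through which Ca2+ leaves the matrix, rose from 961 to 1101 (median 1069) in 5 % CTRL to 1099 to 1228 (median 1200.0) in 5 % STIM. The groups overlapped only in their nearest libraries, and the log2 fold change was 0.16 ± 0.042 (SE, adjusted p = 0.0040), an increase of 12.1 %. Letm1 had 1409.7 to 1593 in 5 % CTRL and 1284 to 1391 in 5 % STIM, without overlap, and a log2 fold change of -0.13 ± 0.034 (SE, adjusted p = 0.00643).

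Mcu had 2070.0 to 2414 (median 2321) in 5 % CTRL and 2284 to 2509.8 (median 2486) in 5 % STIM, where 5 of the 6 libraries were above every control library. The log2 fold change was 0.10 ± 0.033 (SE, adjusted p = 0.0282), an increase of 7.15 %. The call was lost without the filter on low counts (adjusted p = 0.0596) and without replicate 1 or 3 of 5 % CTRL or replicate 2, 3 or 4 of 5 % STIM (adjusted p 0.0519 to 0.11). The lowest value in 5 % CTRL, 2070.0, was that of replicate 1, without which the log2 fold change was 0.070.

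Micu2, Micu3, Mcur1, Mcub, Vdac1 and Smdt1 did not pass, with log2 fold changes between -0.024 for Vdac1 and 0.11 for Smdt1 and adjusted p between 0.264 and 0.782. Micu3 and Mcur1, the members with the largest differences between O2 levels, had intervals from -0.066 to 0.19 and from -0.043 to 0.12. The value of Smdt1 turned to -0.021 when the slope of counts on gene length was fitted as a covariate. With rescaled libraries 62.1 % of the calls were increases, against 44 %, and Vdac1 changed sign to 0.0069.

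With stimulation under 1 % O2 (1 % STIM against 1 % CTRL), Micu3, Mcur1, Micu2 and Slc8b1 were higher and Vdac1 was lower. Of the 9 genes, 4 rose and 1 fell, where 11.5 % of all tested genes rose and 10.8 % fell. The medians were 0.031 over the 9 genes and -0.0031 over all genes. This comparison shares its libraries with those of low O2 above, so that the values are given side by side and not as independent support.

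Mcur1 had 475 to 554 (median 534) in 1 % CTRL and 575 to 633 (median 605) in 1 % STIM, without overlap. The log2 fold change was 0.20 ± 0.040 (SE, adjusted p = 3.48e-04), an increase of 14.6 %, and the stimulated libraries stayed below all of 5 % CTRL (683 to 747). Micu3 had 265 to 296 (median 287) in 1 % CTRL and 296 to 368 (median 341) in 1 % STIM, groups that touched at 296, and a log2 fold change of 0.24 ± 0.062 (SE, adjusted p = 0.00409), an increase of 18.1 %. It too stayed below all libraries of 5 % CTRL.

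Vdac1 had 8796 to 8945 (median 8849) in 1 % CTRL and 7757 to 8364 (median 8278) in 1 % STIM. The groups did not overlap, and the log2 fold change was -0.11 ± 0.026 (SE, adjusted p = 0.00129). For the genes with the largest differences between O2 levels the medians of 1 % STIM thus lay between those of 1 % CTRL and 5 % CTRL, except for Letm1, whose medians were 1437 in 5 % CTRL, 1655 in 1 % CTRL and 1698 in 1 % STIM (log2 fold change with stimulation 0.020, adjusted p = 0.752).

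Micu2 had 1904 to 2161 (median 1982) in 1 % CTRL and 2079 to 2360.0 (median 2187) in 1 % STIM, and a log2 fold change of 0.12 ± 0.035 (SE, adjusted p = 0.0154). This call was lost without replicate 2 of 1 % CTRL (adjusted p = 0.053) or replicate 2 of 1 % STIM (adjusted p = 0.0571). Slc8b1 had 997 to 1089 (median 1032) and 1020.0 to 1212 (median 1119), and a log2 fold change of 0.12 ± 0.042 (SE, adjusted p = 0.0432). The call of Slc8b1 was lost with 8 of 24 libraries left out in turn, replicates 1, 3, 4, 5 and 6 of 1 % CTRL and 2, 3 and 6 of 1 % STIM (adjusted p 0.0516 to 0.129). It was also lost without the filter (adjusted p = 0.0901), with the compared groups alone (adjusted p = 0.0699) and with array weights (adjusted p = 0.0912).

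Mcu (2233 to 2360.0 against 2254 to 2433), Mcub (137 to 178 against 142 to 178) and Smdt1 (481 to 780 against 545 to 702) overlapped between 1 % CTRL and 1 % STIM and did not pass. Their log2 fold changes were 0.031, -0.0078 and -0.038, with 95 % confidence intervals from -0.036 to 0.099, from -0.16 to 0.14 and from -0.28 to 0.21. With rescaled libraries 62.4 % of all calls in this comparison were increases, against 51.4 %, and Mcub changed sign to 0.013.

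The difference between the responses to stimulation was tested as an interaction, the response under 1 % O2 minus that under 5 % O2. Only Letm1 passed, with 0.15 ± 0.048 (SE, adjusted p = 0.0440), from a response of -0.13 under 5 % O2 and of 0.020 under 1 % O2. Of the 9 genes 1 was thus called as higher and 0 as lower, where 5.88 % of all tested genes were higher and 5.43 % lower. The call of Letm1 was lost with 16 of 24 libraries left out in turn (all of 1 % CTRL but replicate 1, replicates 1, 5 and 6 of 5 % CTRL, 1 to 4 of 5 % STIM, and 2, 3, 4 and 6 of 1 % STIM; adjusted p 0.0506 to 0.0858), without the filter (adjusted p = 0.0997), with rescaled libraries (adjusted p = 0.0548) and with the length slope as a covariate (adjusted p = 0.0778). Mcur1 had an interaction of 0.16 ± 0.057 (SE, adjusted p = 0.0721) and passed without replicate 1 of 1 % CTRL (adjusted p = 0.0498) and with array weights (adjusted p = 0.0427). For Micu3, Micu2 and Vdac1, which passed under 1 % O2 and not under 5 % O2, the interactions were 0.18, 0.058 and -0.088 (adjusted p 0.204, 0.512 and 0.125), so that a difference between the O2 levels was not shown for them.

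Because the make-up of the complex matters for uptake, each gene was also set against Mcu in the same library, as the log2 ratio of the normalized counts. These are ratios of transcripts, and protein and the make-up of the complex were not measured in these libraries. Letm1, Slc8b1 and Vdac1 were set against Mcu as genes of the exchange side. The ratios share their denominator, and where Mcu itself moved, all ratios move with it. In 1 % CTRL against 5 % CTRL, 2 of 8 ratios rose and 2 fell, where 27.6 % of the ratios of all genes to Mcu rose and 27.3 % fell. In 1 % STIM against 5 % STIM it was again 2 and 2 of 8, where 35 % rose and 19.5 % fell.

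The count of Micu3 per count of Mcu was 0.163 to 0.21 in 5 % CTRL (median 0.181) and 0.114 to 0.131 in 1 % CTRL (median 0.125). All libraries under 1 % O2 were lower, with a log2 difference of -0.57 ± 0.070 (SE, adjusted p = 8.56e-10; two-sided exact permutation test, p = 0.00216, the smallest that 6 against 6 can give). With stimulation the ratio was 0.162 to 0.193 in 5 % STIM and 0.132 to 0.16 in 1 % STIM, again without overlap, with a log2 difference of -0.32 ± 0.070 (SE, adjusted p = 1.26e-04).

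The count of Mcur1 per count of Mcu was 0.293 to 0.352 in 5 % CTRL (median 0.31) and 0.201 to 0.244 in 1 % CTRL (median 0.235), with a log2 difference of -0.44 ± 0.058 (SE, adjusted p = 6.22e-09). In stimulated myotubes it was 0.288 to 0.322 under 5 % O2 and 0.236 to 0.281 under 1 % O2, with a log2 difference of -0.21 ± 0.058 (SE, adjusted p = 0.00183). Relative to the pore, both genes were thus lower in every 1 % library than in every 5 % library of the same state.

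On the exchange side, Vdac1 per Mcu rose from 3.06 to 3.63 in 5 % CTRL to 3.76 to 3.97 in 1 % CTRL (log2 difference 0.20 ± 0.045 SE, adjusted p = 1.21e-04). Letm1 per Mcu was 0.585 to 0.77 in 5 % CTRL and 0.703 to 0.749 in 1 % CTRL, with overlap through replicate 1 of 5 % CTRL (log2 difference 0.18 ± 0.054 SE, adjusted p = 0.00307). Between 5 % STIM and 1 % STIM the differences were 0.18 ± 0.045 for Vdac1 (adjusted p = 4.70e-04) and 0.40 ± 0.054 for Letm1 (adjusted p = 8.73e-09). Slc8b1 per Mcu did not pass in either comparison, with intervals from -0.14 to 0.083 and from -0.12 to 0.10.

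The ratio of Mcub to Mcu, the transcripts of the dominant-negative and the conducting subunit, was 0.0661 to 0.0846 in 5 % CTRL (median 0.0803) and 0.0607 to 0.0753 in 1 % CTRL (median 0.0692). Its log2 difference of -0.17 ± 0.085 (SE) had an adjusted p of 0.0788 in the limma fit and p = 0.0281 in the two-sided exact permutation test, which is not adjusted for the 32 ratio comparisons made. It passed in the limma fit without replicate 2 of 5 % CTRL (adjusted p = 0.0311). In 1 % STIM against 5 % STIM the difference was -0.15 ± 0.085 (SE, adjusted p = 0.134). Per kb of the union of exons Mcub stood at 0.41 ± 0.036 (SD, n = 6) of Mcu in 5 % CTRL, and per kb of the longest transcripts at 0.17 ± 0.015, so that the proportion of the 2 subunits in transcripts depends on the length taken.

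The ratios of Micu2 and Smdt1 to Mcu did not pass the limma fit in any comparison. Micu2 per Mcu had group means between 0.886 and 0.94, and Smdt1 per Mcu between 0.268 and 0.293. In 1 % CTRL against 5 % CTRL their 95 % confidence intervals were from -0.18 to 0.019 and from -0.11 to 0.37 on the log2 scale.

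With stimulation under 5 % O2, 0 of 8 ratios rose and 2 fell, where 4.32 % of all ratios rose and 30.2 % fell, and the median of all ratios was -0.11, as Mcu itself was higher in that group. Letm1 per Mcu, with -0.23 ± 0.054 (SE, adjusted p = 9.26e-04), was below this median, and Vdac1 per Mcu, with -0.12 ± 0.045 (SE, adjusted p = 0.0260), was near it. The call of Vdac1 was lost without replicate 1 or 3 of 5 % CTRL or any of replicates 1 to 4 of 5 % STIM (adjusted p 0.0506 to 0.0731), and with the compared groups alone (adjusted p = 0.0556).

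With stimulation under 1 % O2, 2 of 8 ratios rose and 1 fell, where 6.25 % of all ratios rose and 10.4 % fell. Micu3 per Mcu rose by 0.21 ± 0.070 (SE, adjusted p = 0.0303), Mcur1 per Mcu by 0.17 ± 0.058 (SE, adjusted p = 0.0421), and Vdac1 per Mcu changed by -0.14 ± 0.045 (SE, adjusted p = 0.0183). These calls depended on single libraries. That of Micu3 was lost without replicate 4 or 5 of either 1 % CTRL or 1 % STIM (adjusted p 0.0606 to 0.0957), that of Mcur1 without replicates 3, 5 or 6 of 1 % CTRL or 2, 4, 5 or 6 of 1 % STIM (adjusted p 0.0576 to 0.151), and that of Vdac1 without replicate 3 of 1 % STIM (adjusted p = 0.0840). Without the filter, Micu3 (adjusted p = 0.0652) and Mcur1 (adjusted p = 0.0853) lost their calls, and Mcur1 did so with the compared groups alone (adjusted p = 0.0506). For the interaction, 0 of the 8 ratios passed the limma fit, where 1451 of the 14540 ratios of all genes did. The lowest adjusted p were 0.0608 for Letm1, 0.0704 for Mcur1 and 0.101 for Micu3. These 3 had an unadjusted p under 0.05 and passed with array weights. Without single libraries, Letm1 passed in 6 of 24 fits (without replicate 2 or 4 of 5 % CTRL, 1 of 1 % CTRL, 5 of 5 % STIM, or 1 or 5 of 1 % STIM) and Mcur1 in 3 of 24 (without replicate 1 of 1 % CTRL, 5 of 5 % STIM or 3 of 1 % STIM). Without replicate 1 of 1 % CTRL their adjusted p were 0.0348 and 0.0459, and the interaction of the ratio of Mcub was -0.011 in place of 0.024.

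**Figure D4:**
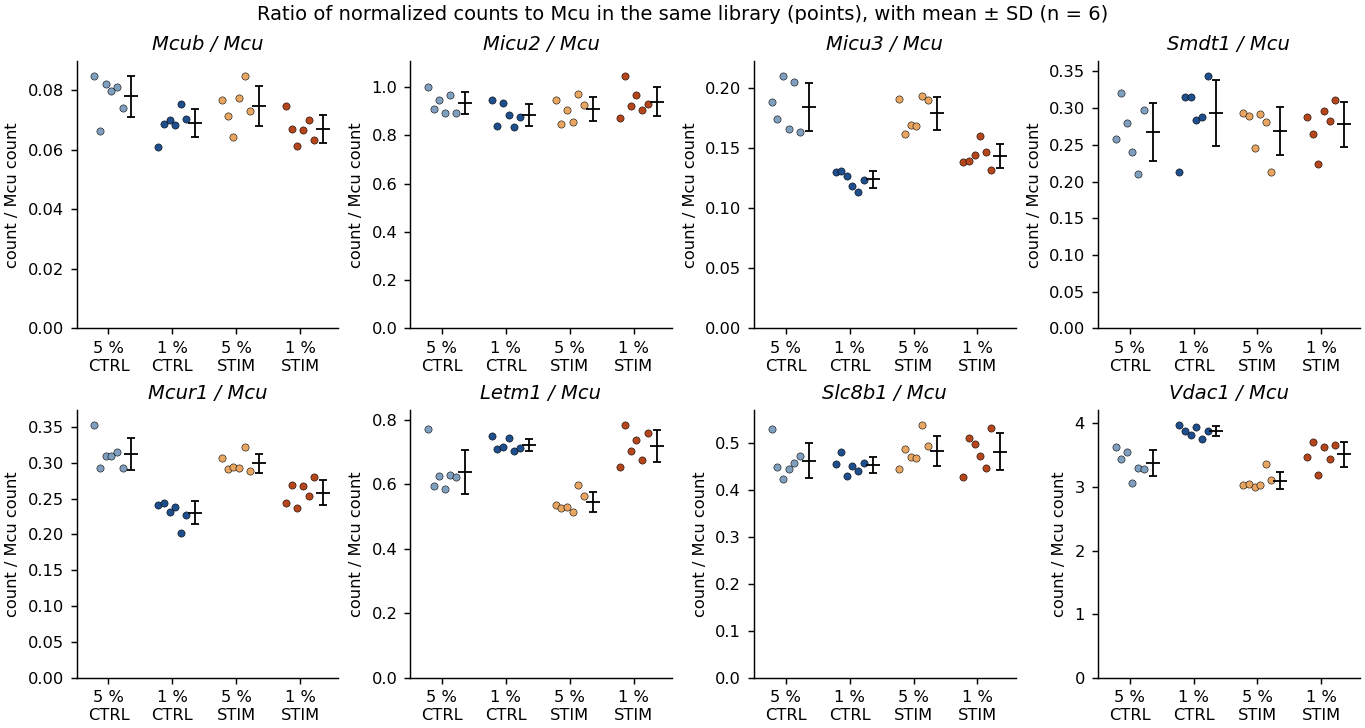
Normalized count of each of the other 8 genes divided by that of Mcu in the same library (points, 24 libraries by group), with mean ± SD of 6 libraries and axes that start at 0. The ratios of Micu3 and Mcur1 are lower in both 1 % groups than in the 5 % groups, with medians of 0.181 against 0.125 for Micu3 at rest, and those of Micu2, Smdt1 and Slc8b1 overlap across groups.

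Beyond the members, 39 further genes of mitochondrial Ca2+ handling were grouped as assembly and partners of the uniporter, other exchange and outer membrane genes, Ca2+-regulated carriers and matrix enzymes, and contacts with the reticulum. Slc8a2, an exchanger of the plasma membrane, was under the filter on low counts, and 38 were tested. In 1 % CTRL against 5 % CTRL 11 of the 38 rose and 13 fell, and in 1 % STIM against 5 % STIM 12 rose and 11 fell, where 29.4 % of all tested genes rose and 30.5 % fell in the first and 29 % rose and 28.4 % fell in the second. With stimulation 4 rose and 8 fell under 5 % O2 (9.44 % and 12 % of all genes), and 3 rose and 6 fell under 1 % O2 (11.5 % and 10.8 % of all genes). Their median log2 fold changes were -1.16e-04, 0.033, -0.034 and -0.018 in these comparisons, beside 0.0015, -8.27e-04, -0.0076 and -0.0031 over all genes.

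Of the 8 assembly genes, 4 fell and 2 rose under 1 % O2 at rest, beside 30.5 % and 29.4 % of all genes. Afg3l2, a subunit of the protease that removes unassembled EMRE, had a log2 fold change of -0.17 (adjusted p = 4.8e-07), and Maip1, which protects newly made EMRE, had -0.27 (adjusted p = 2.57e-04). Oma1, a stress-activated protease of the inner membrane, was among those that rose, by 0.28 at rest (adjusted p = 0.00459) and by 0.36 with stimulation (adjusted p = 3.4e-04). With stimulation under 5 % O2, 3 of the 8 fell, beside 12 % of all genes.

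Among the exchange genes, Letmd1, named for a domain it shares with Letm1, rose under 1 % O2 by 0.36 at rest (adjusted p = 6.37e-08) and by 0.44 with stimulation (adjusted p = 1.32e-09). Letm2 rose under 1 % O2 by 0.68 with stimulation (adjusted p = 2.84e-06). At rest it rose by 0.49 (adjusted p = 2.67e-04), at group means of 63.3 in 5 % CTRL and 88.8 in 1 % CTRL. Vdac2 and Vdac3, the paralogues of Vdac1, did not pass in any of the 4 comparisons, with log2 fold changes between -0.065 and 0.039. Slc8a1, an exchanger of the plasma membrane, had a log2 fold change of -0.25 under 1 % O2 at rest (adjusted p = 3.05e-04). It rose with stimulation under 1 % O2 by 0.21 (adjusted p = 0.00697), and its group means were 468 in 5 % CTRL, 394 in 1 % CTRL and 454 in 1 % STIM.

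Of the 10 carriers and enzymes, 4 rose and 3 fell under 1 % O2 at rest (29.4 % and 30.5 % of all genes), and 5 rose and 4 fell in stimulated myotubes (29 % and 28.4 % of all genes). Slc25a25, a Ca2+-regulated ATP-Mg/Pi carrier, rose with stimulation by 0.66 under 5 % O2 (adjusted p = 1.89e-10) and by 0.58 under 1 % O2 (adjusted p = 3.73e-09). Pdp2, a phosphatase of pyruvate dehydrogenase, rose with stimulation under 5 % O2 by 0.30 (adjusted p = 0.00214). It also rose under 1 % O2 at rest, by 0.29 (adjusted p = 7.81e-04). Ppif, which encodes cyclophilin D of the permeability transition pore, had a log2 fold change of -0.39 under 1 % O2 at rest (adjusted p = 4.00e-05) and of -0.28 with stimulation under 5 % O2 (adjusted p = 0.0062).

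Of the 12 contact genes, 3 rose and 3 fell under 1 % O2 at rest, and 4 rose and 3 fell in stimulated myotubes, beside the same shares of all genes. Pacs2, which sorts proteins to contacts of reticulum and mitochondria, rose from 4893 to 6979 (group means; log2 fold change 0.51, adjusted p = 6.44e-17). Itpr2, a Ca2+ release channel of the reticulum, had a log2 fold change of -0.14 under 1 % O2 at rest (adjusted p = 0.0301). It rose with stimulation under 1 % O2 by 0.21 (adjusted p = 0.00596).

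**Figure D5:**
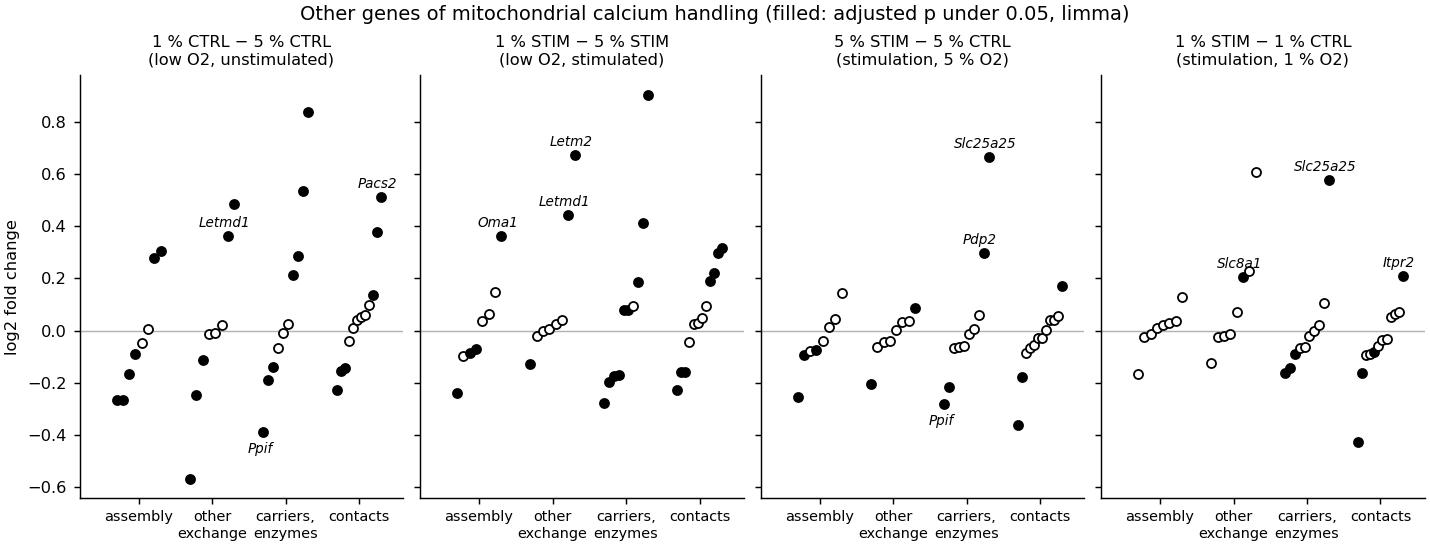
Log2 fold changes of 38 further genes of mitochondrial Ca2+ handling in the 4 comparisons, by list (assembly, other exchange, carriers and enzymes, contacts), filled where the adjusted p from limma is under 0.05, with 3 genes named per comparison by a rule on size and level. Of these, 11 rise and 13 fall under 1 % O2 at rest, and Slc25a25 is the highest called gene in both comparisons of stimulation.

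Across the 24 libraries, the genes whose log2 levels followed Mcu most closely among 10794 well-expressed genes (mean normalized count over 100) were Phf10 (Pearson's r = 0.68), Fzd4 (0.67), Gm7967 (0.66), Ifnar2 (0.66) and Ypel5 (0.66), and the most opposed were Colgalt1 (-0.73) and Grk6 (-0.72). Among the members, r with Mcu ran from -0.60 for Letm1 to 0.40 for Micu3. Micu3 and Mcur1 had an r of 0.91 with each other and of -0.85 and -0.91 with Vdac1. These values describe libraries that share 4 groups and their size factors.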

How the data were processed

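Groups came from the labels. The authors aligned single-end reads to GRCm38 (STAR 2.5.4b, with FastQC 0.11.7) and estimated counts per gene with RSEM 1.3.0. The deposited values are a signal, these counts scaled by a DESeq2 size factor for each library. A second deposited table holds the authors' own fold changes, p-values and calls and was not used.

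A gene was tested where 6 or more libraries reached 10 normalized counts. One limma fit of the 4 groups (limma 3.58.1, R 4.3.3, eBayes with trend and robust) was run on log2 values with a pseudocount of 1, which understates changes of low genes. Ratios were fitted likewise for all genes other than Mcu. Lengths and positions are from GENCODE M21. Scripts were tested on simulated data. The alternatives were the pseudocount (10), dropping the filter, blocking on replicate number, a stricter threshold (0.01), fitting only the compared groups, rescaled libraries, array weights, the length slope, exact permutation of ratios, the longest transcript, and edgeR 4.0.16, DESeq2 1.42.0 and voom on whole reads recovered from the deposited values (100 % of values whole within 0.01; edgeR called 4376 genes higher and 4368 lower in 1 % CTRL against 5 % CTRL), besides leaving out each library.

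Named are the 9 members and, from the further lists, up to 4 called genes per comparison that changed most, among genes whose higher group averaged at least 100. Afg3l2, Maip1, Vdac2, Vdac3 and Slc8a2 were named after their values were seen. The members and lists were chosen with earlier results of these data known. The lists count 2 further genes without naming them, since they are not reported here.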

Additional observations from a re-analysis of the deposited data

Results flagged for a closer look

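Of 68 group values tested for a library that stands apart (36 of levels and 32 of ratios to Mcu, groups of 6), 6 passed Dixon's 95 % critical value, where chance gives about 1 in 20. They were Mcu in replicate 5 of 5 % STIM (2284, the lowest of its group), Letm1 in replicate 1 of 5 % CTRL (1593, the highest), Slc8b1 in replicate 3 of 5 % CTRL (961, the lowest) and Vdac1 in replicate 3 of 1 % STIM (7757, the lowest). For the log2 ratios to Mcu they were Letm1 in replicate 1 of 5 % CTRL (-0.38, the highest) and Vdac1 in replicate 5 of 5 % STIM (1.75, the highest). The response of Letm1 to stimulation differed between O2 levels by 0.15 (adjusted p = 0.0440, limma), with the limits given above.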

How the results depend on the processing

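The low O2 calls of Micu3, Mcur1, Letm1 and Vdac1 kept their direction and call in both comparisons, under all 11 alternatives and with each of the 24 libraries left out. edgeR, voom and a pseudocount of 10 moved none of the 45 level results, called or not, across the threshold. With rescaled libraries, signs turned for Mcu (0.075) and Slc8b1 (0.046) in 1 % CTRL against 5 % CTRL, Vdac1 (0.0069) in 5 % STIM against 5 % CTRL, Micu2 (0.045) and Smdt1 (0.043) in 1 % STIM against 5 % STIM, and Mcub (0.013) in 1 % STIM against 1 % CTRL. With the length slope as a covariate, they turned for Smdt1 in 5 % STIM against 5 % CTRL (-0.021), in 1 % STIM against 5 % STIM (0.089), in 1 % STIM against 1 % CTRL (0.0031) and in the interaction (0.024), for Mcub in 1 % STIM against 1 % CTRL (0.0019), and for the ratios to Mcu of Micu3 (0.0024) and Smdt1 (-0.11) in 5 % STIM against 5 % CTRL and of Smdt1 in the interaction (0.085). With array weights, they turned for the ratios of Slc8b1 in 1 % CTRL against 5 % CTRL (0.0094) and in the interaction (-0.018) and of Smdt1 in 5 % STIM against 5 % CTRL (-0.017). None of these values passed the test, and their cause was not tested.

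At an adjusted p under 0.01, 1944 genes were called in 5 % STIM against 5 % CTRL (3115 at 0.05) and 830 in the interaction (1645), and for ratios 3170 in 5 % STIM against 5 % CTRL (5025), 1571 in 1 % STIM against 1 % CTRL (2422) and 589 in the interaction (1451). Of the members, 3 in place of 5 were then called in 1 % STIM against 1 % CTRL, 0 in place of 1 in the interaction, and for ratios 1 in place of 2 in 5 % STIM against 5 % CTRL and 0 in place of 3 in 1 % STIM against 1 % CTRL. In the interaction, 0 members were called without the filter, with the replicate block, with rescaled libraries or with the length slope, and 2 with array weights. Over all genes, the fits with 0 members called 589, 899, 778 and 808 higher and 628, 811, 860 and 992 lower, in that order. Array weights called 1339 higher and 1071 lower, against 855 and 790 in the fit used above. For ratios, 1 member was called in 5 % STIM against 5 % CTRL with the compared groups alone, 1 in 1 % STIM against 1 % CTRL without the filter, and 3 in the interaction with array weights, where 2617 genes were called, against 870 without the filter.

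Leaving out single libraries, the members called ranged from 3 to 5 in 1 % STIM against 1 % CTRL and from 0 to 2 in the interaction. Over all genes, 2893 to 3748 and 1343 to 2316 were called in these fits. For ratios, the members called ranged from 1 to 2 in 5 % STIM against 5 % CTRL (3934 to 5762 over all genes). They ranged from 1 to 3 in 1 % STIM against 1 % CTRL (2037 to 2822) and from 0 to 2 in the interaction (978 to 2164). Log2 fold changes that crossed 0 ranged from -0.035 to 0.0091 (Mcu, 1 % CTRL against 5 % CTRL), from -0.090 to 0.022 (Smdt1, 1 % STIM against 5 % STIM), from -0.047 to 0.028 (Mcub) and from -0.13 to 0.011 (Smdt1) in 1 % STIM against 1 % CTRL. Ratios that did so ranged from -0.054 to 0.012 (Slc8b1, 1 % CTRL against 5 % CTRL), from -0.072 to 7.43e-04 (Micu3) and from -0.054 to 0.078 (Smdt1) in 5 % STIM against 5 % CTRL, from -0.018 to 0.11 (Smdt1) and from -0.038 to 0.026 (Slc8b1) in 1 % STIM against 5 % STIM, from -0.037 to 0.015 (Letm1, 1 % STIM against 1 % CTRL), and in the interaction from -0.017 to 0.070 (Mcub), from -0.020 to 0.054 (Slc8b1) and from -0.041 to 0.0094 (Vdac1).

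Whether replicate numbers pair the libraries was not settled. Deviations from the group means correlated best with the same number in 16 of 72 pairs of a library and another group. By chance this would be 1 in 6. Correlations between libraries of the same number ran from -0.148 to 0.155. With the replicate block, 44 of 45 level results and 39 of 40 ratio results, called or not, stayed on their side of the threshold with the same sign, and the calls of Letm1 in the interaction (adjusted p = 0.0606) and of the ratio of Mcur1 in 1 % STIM against 1 % CTRL (adjusted p = 0.0569) were lost. Mcub, at 137 to 193 normalized counts, was the lowest member, and the spread of Smdt1 leaves its intervals wide.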
